A study of Mus musculus with 37 samples.

Results

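The RNA of 10 genes of glucocorticoid signalling was followed in the lungs of 2 mouse strains before and at birth. These data hold no measure of hormone or protein. The 10 genes were the glucocorticoid receptor Nr3c1, the mineralocorticoid receptor Nr3c2, the steroid enzymes Hsd11b1 and Hsd11b2, and 6 target genes (Fkbp5, Tsc22d3, Zbtb16, Sgk1, Klf9 and Dusp1). The genes, and the lists set beside them below, were chosen by name with earlier results of these data known. Each of the 10 genes was read by 1 probe set that carried no other gene symbol, and they stood among 19938 genes measured in this way. Lungs of C57BL/6J (B6) mice were sampled daily between E15.5 and E18.5 and on the day of birth (PN0), and those of A/J mice daily between E15.5 and E20.5 and at PN0. Each of the 12 groups held 3 replicates, and each replicate was RNA of the whole right lung pooled from 3 males of a litter. The labels name no transgene and no treatment. B6 pups are born earlier than A/J pups, so that PN0 lungs of B6 were a day past E18.5, while PN0 lungs of A/J were a few hours past E20.5.

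Glucocorticoid from the adrenal cortex rises in the fetal circulation late in gestation, and lungs of mice that lack Nr3c1 do not mature. In the cell, Nr3c1 waits in a complex with the chaperone Hsp90 and immunophilins, binds hormone, enters the nucleus and acts on its targets through response elements. Hsd11b1 regenerates active corticosterone from its inert keto form inside the cell, and Hsd11b2 carries out the opposite reaction.

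Values are log2 expression values after RMA, so that a difference of 1 is a doubling. The threshold for a difference was an adjusted p of 0.05 (limma, Benjamini-Hochberg over 21789 probe sets). Change over time was called by limma's F test below an adjusted p of 0.01, with a fold of at least 2 between the highest and the lowest time. The spread behind every p value is that between pools of different litters, and in whole lung RNA a change in the number of cells that express a gene cannot be told apart from a change in its RNA per cell. The lung markers Nkx2-1 (9.16 to 9.96) and Sftpc (12.36 to 14.0) were high in every replicate, while Scgb1a1 of the same list ranged from 4.38 to 13.44. Of the adrenal genes, Cyp21a1 stayed between 4.36 and 4.93, and Nr5a1, which had the highest mean of that list, between 5.56 and 6.49. In 5 of the 36 replicates the mean of liver, heart or esophagus markers lay more than 1 above the median of its group: replicate 1 of A/J at E15.5, of B6 at E15.5 and of B6 at E16.5, and replicate 2 of A/J at E19.5 and at PN0. This rule is relative to the group, so that it cannot flag a group in which most replicates were high. The mean of the esophagus markers ranged from 7.14 to 7.40 in A/J at E18.5 and from 5.71 to 7.41 in A/J at E20.5. In B6 at E18.5 it ranged from 5.616 to 6.245. No replicate of these groups was flagged. The labels do not say whether array 2b of the E18.5 lungs of B6 repeats pool 2 or holds another pool, and it correlated with array 2 (r = 0.993) no more than with arrays 1 and 3 (r = 0.993 each). By its title it was averaged with array 2. The median of all tested probe sets was 0.12 higher at E18.5 than at E17.5 in A/J and differed by -0.13 between B6 and A/J at E18.5. It differed by -0.10 between E20.5 and E18.5 in A/J. For the strain difference (B6 minus A/J) it was -0.11 in the change from E15.5 to E18.5 and 0.095 in that from E18.5 to PN0. Member differences in all of those comparisons are to be read against these shifts.

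Hsd11b1 and the targets had the widest ranges over time, although Sgk1 in B6 passed in no comparison between fetal times, and the receptors and Hsd11b2 stayed within a 2-fold range of group means in each strain. By the F test, 7 members changed over time in B6 (Hsd11b1 and the 6 targets), where 14.3% of all tested probe sets did. In A/J, 6 members changed (Hsd11b1 and 5 targets), against 17.8% of all tested probe sets. Fkbp5 passed the F test in A/J (adjusted p = 0.00162), but its highest and lowest times differed by 1.95-fold. Nr3c1 passed the F test in both strains (adjusted p = 0.000102 in B6 and 1.25e-06 in A/J), with spans of 1.35-fold in B6 and 1.62-fold in A/J. When the 12 groups were ranked by their means, all 11 neighbouring pairs of groups overlapped for Nr3c1, Nr3c2 and Hsd11b2, while 5 of 11 did so for Klf9, 6 for Dusp1, 7 for Hsd11b1 and Tsc22d3, 8 for Sgk1, 9 for Fkbp5 and 10 for Zbtb16. The same count was not made over all tested probe sets, so that these numbers only describe the members.

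**Figure D1:**
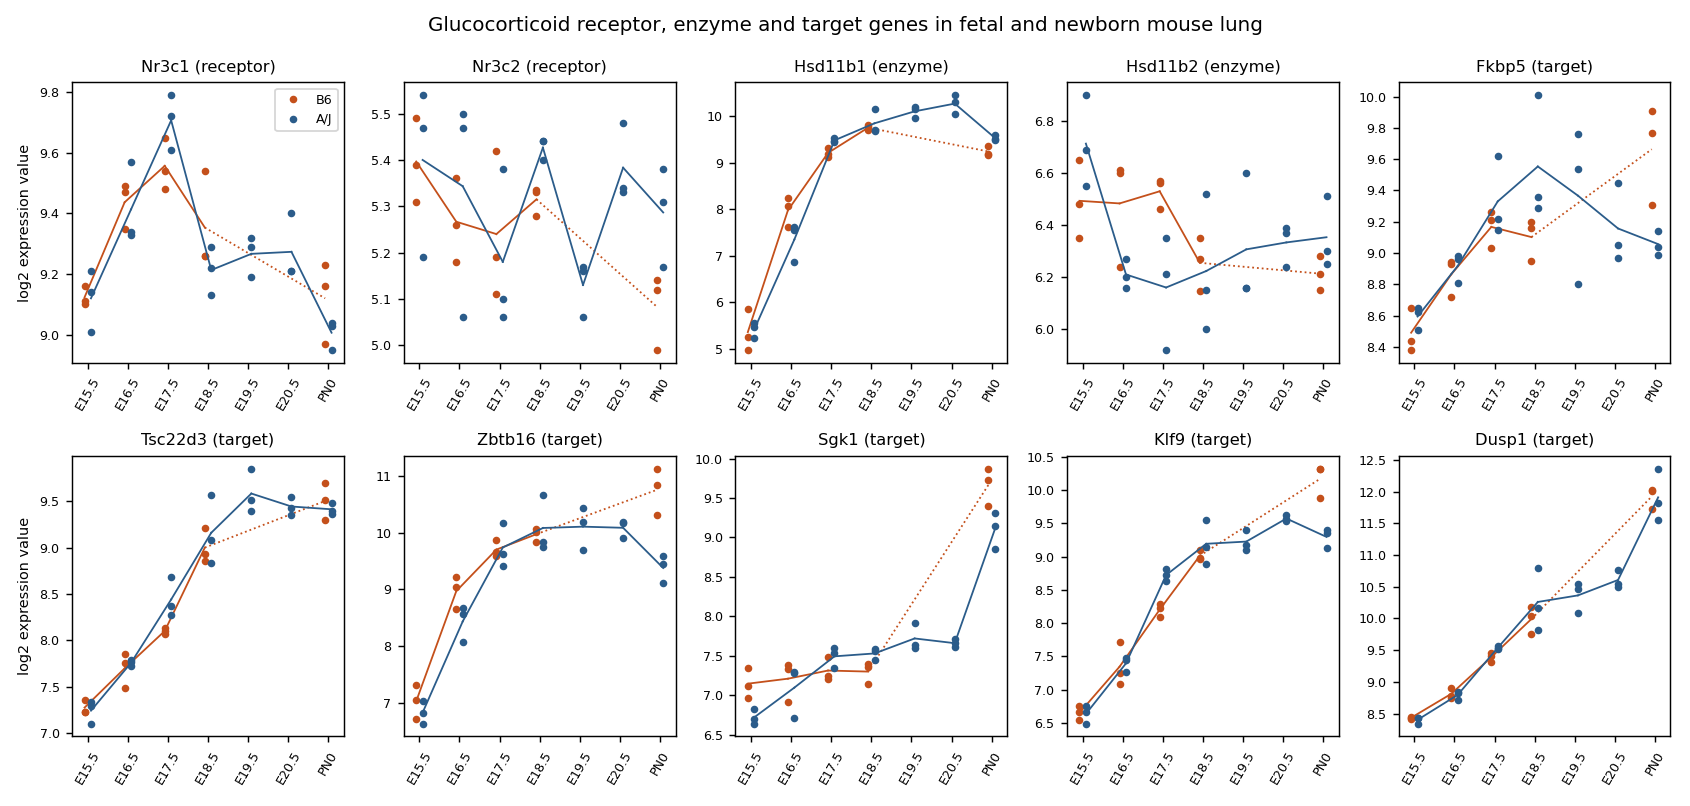
Log2 expression value (vertical axis) of the 10 genes by time (horizontal axis), in B6 and A/J lungs. Each point is a replicate, lines join the group means, and the dotted line of B6 spans times at which B6 was not sampled. Hsd11b1 climbs before birth, as do the targets other than Sgk1 in B6, with Sgk1 reaching 9.40 to 9.87 in B6 and 8.86 to 9.31 in A/J at PN0 only.

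Nr3c1, the receptor that carries the glucocorticoid signal, had its highest mean at E17.5 in both strains. In B6 lungs its means over the 5 times, E15.5 first, were 9.12, 9.44, 9.56, 9.35 and 9.12 (SD 0.03 to 0.16, n = 3 each). In A/J lungs its means over the 7 times were 9.12, 9.41, 9.71, 9.21, 9.27, 9.27 and 9.01 (SD 0.05 to 0.14, n = 3 each). The peak was small, 0.43 above E15.5 in B6 (SE 0.09, adjusted p = 0.000155) and 0.59 above it in A/J (SE 0.09, adjusted p = 2.22e-06). In B6 the replicates read 9.26, 9.54 and 9.26 at E18.5, against 9.65, 9.54 and 9.48 at E17.5, the groups overlapped, and the difference of -0.20 (SE 0.09) did not pass (adjusted p = 0.0874). The replicates of A/J read 9.22, 9.29 and 9.13 at E18.5, against 9.79, 9.72 and 9.61 at E17.5, and this fall of 1.41-fold passed the test (adjusted p = 0.000129). At birth Nr3c1 was lower than at the last fetal time by -0.23 in B6 (SE 0.09, adjusted p = 0.0434) and by -0.27 in A/J (SE 0.09, adjusted p = 0.0265). The B6 call rested on array 2, which read 9.77 where array 2b read 9.31: with array 2b in its place the adjusted p was 0.152, and without B6 E18.5 replicate 2, PN0 replicate 1 or PN0 replicate 2 it was 0.0654 to 0.298. The A/J call was lost without E20.5 replicate 3 or PN0 replicate 1 (adjusted p 0.0948 to 0.155).

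Nr3c2, the mineralocorticoid receptor, which also binds corticosterone, stayed between 4.99 and 5.54 in all replicates and changed over time in neither strain by the F test (adjusted p = 0.114 in B6 and 0.0843 in A/J). The values came without detection calls, and this is the level of 7 thymus markers (list means of 5.09 to 5.51 over all replicates), so that Nr3c2 was not shown to be above background. In B6 its replicates read 4.99, 5.12 and 5.14 at PN0, against 5.49, 5.39 and 5.31 at E15.5, a difference of -0.31 (SE 0.11) without overlap (adjusted p = 0.0139). That call was lost without E15.5 replicate 1, which was high in liver markers, or PN0 replicate 1 (adjusted p 0.0666 to 0.0679). In A/J the corresponding difference was -0.11 (SE 0.11) and did not pass.

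Hsd11b1, which regenerates active hormone, had the largest change of the 10 genes in both strains. At E15.5 it lay near the level of the thymus markers, so that it was not shown to be above background there, and no fold against E15.5 is given. In B6 lungs the replicates read 5.26, 5.85 and 4.98 at E15.5, 8.08, 8.24 and 7.63 at E16.5, 9.33, 9.19 and 9.13 at E17.5, and 9.77, 9.70 and 9.81 at E18.5. The difference between E17.5 and E15.5 was 3.85 in B6 (SE 0.18, adjusted p = 3.81e-15). In A/J lungs its replicates read 5.24, 5.47 and 5.55 at E15.5, 7.63, 7.55 and 6.88 at E16.5, and 9.54, 9.47 and 9.45 at E17.5. They continued to 9.69, 9.71 and 10.16 at E18.5, 10.21, 10.16 and 9.96 at E19.5, and 10.31, 10.06 and 10.46 at E20.5. Most of the climb thus lay between E15.5 and E17.5, where the difference was 4.07 in A/J (SE 0.18, adjusted p = 1.45e-15). At E16.5 Hsd11b1 was the 1 member higher in B6 than in A/J, by 1.55-fold (adjusted p = 0.0357), where 2.83% of all tested probe sets were higher and 4.43% lower in B6, but the groups overlapped, and the call was lost without A/J replicate 3 or B6 replicate 1 or 2 of that time (adjusted p 0.108 to 0.282).

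Hsd11b1 fell at birth in both strains. In B6 lungs it read 9.36, 9.18 and 9.20 at PN0, against 9.77, 9.70 and 9.81 at E18.5, a difference of 1.43-fold without overlap (adjusted p = 0.038). In A/J lungs it read 9.50, 9.52 and 9.60 at PN0, against 10.31, 10.06 and 10.46 at E20.5, a difference of 1.67-fold without overlap (adjusted p = 0.00462). The B6 call was lost without any 1 of the E18.5 replicates or without PN0 replicate 2 or 3 (adjusted p 0.0628 to 0.109).

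Hsd11b2, which inactivates corticosterone, moved little. In B6 it read 6.57, 6.46 and 6.56 at E17.5, against 6.35, 6.48 and 6.65 at E15.5, with overlap and a difference of 0.04 (SE 0.13). In A/J it read 5.92, 6.21 and 6.35 at E17.5, against 6.90, 6.69 and 6.55 at E15.5, and was 1.47-fold lower (adjusted p = 0.00126). At PN0 it stayed 1.28-fold below E15.5 in A/J (adjusted p = 0.0248), a call that was lost without E15.5 replicate 1 or PN0 replicate 1 or 2 (adjusted p 0.0733 to 0.145). Among further genes of steroid supply, H6pd, which supplies the cofactor of Hsd11b1, was 1.29 higher at PN0 than at E15.5 in B6 and 1.58 higher in A/J (adjusted p = 4.03e-11 in B6 and 6.41e-13 in A/J). Crh, the releasing hormone at the head of the adrenal axis, was higher at E17.5 than at E15.5 by 0.70 in B6 and by 2.06 in A/J, and lower at PN0 than at E15.5 by -1.37 in B6 (adjusted p = 2.24e-06) and -1.15 in A/J (adjusted p = 2.72e-05). The efflux pump Abcb1a was higher at PN0 than at E15.5 by 0.58 in B6 (adjusted p = 0.000109) and 0.74 in A/J (adjusted p = 3.83e-06). Serpina6, the corticosteroid-binding globulin, differed by -1.14 in B6 and -0.80 in A/J (SE 0.68 each) and did not pass. Replicate 1 of E15.5 was high in liver markers in both strains, and the part of liver tissue in these Serpina6 differences was not tested. Of the 14 measured genes of this list, 4 were higher and 1 was lower at PN0 than at E15.5 in B6, and 3 were higher and 1 was lower in A/J, where 24.1% of all tested probe sets were higher and 26.4% lower in B6, and 25.0% and 25.6% in A/J. The list median difference was 0.07 in B6 and -0.04 in A/J, beside -0.00 and -0.04 over all probe sets.

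All 6 targets had risen by E17.5 in A/J, and all but Sgk1 in B6. At E17.5 against E15.5, 7 members were higher in B6, where 17.6% of all tested probe sets were higher and 21.7% lower, and none was lower. In A/J, 8 members were higher, where 16.9% of all tested probe sets were, and 1 (Hsd11b2) was lower, against 20.3%. Zbtb16, a zinc finger repressor of transcription, rose most of the targets by then, 6.35-fold in B6 (2.67, SE 0.24, adjusted p = 1.01e-09) and 7.48-fold in A/J (2.90, SE 0.24, adjusted p = 1.2e-10). Its replicates read 9.86, 9.58 and 9.66 in B6 at E17.5, against 6.73, 7.05 and 7.32 at E15.5. In A/J they read 10.17, 9.41 and 9.63 at E17.5, against 6.64, 6.83 and 7.03 at E15.5. From E18.5 to E20.5 the A/J means of Zbtb16 were flat, at 10.08, 10.10 and 10.08.

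Klf9, a Krüppel-like transcription factor, had means of 6.65, 7.35, 8.20, 9.01 and 10.17 over the 5 times in B6 (SD 0.08 to 0.33, n = 3 each). In A/J its means over the 7 times were 6.64, 7.40, 8.72, 9.19, 9.23, 9.57 and 9.30 (SD 0.05 to 0.33, n = 3 each). Klf9 was the 1 member lower in B6 at E17.5, where 6.45% of all tested probe sets were lower and 3.65% higher. It read 8.29, 8.09 and 8.23 in B6 and 8.81, 8.63 and 8.73 in A/J, a difference of -0.52 (SE 0.14, adjusted p = 0.0215) that was lost without A/J replicate 1 or B6 replicate 2 (adjusted p 0.0902 to 0.099). Tsc22d3, which encodes the glucocorticoid-induced leucine zipper, had means that climbed at each time in B6, with replicates of 7.23 to 7.36 at the first and 9.30 to 9.70 at the last. In A/J its means over the 7 times were 7.24, 7.76, 8.44, 9.16, 9.58, 9.44 and 9.41. Between E17.5 and E18.5 Tsc22d3 rose 1.87-fold in B6 (adjusted p = 4.38e-05) and 1.65-fold in A/J (adjusted p = 0.000513).

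In that step 4 members were higher in B6 (Tsc22d3, Klf9, Dusp1 and Hsd11b1), where 12.5% of all tested probe sets were higher and 10.5% lower, and 3 in A/J (Tsc22d3, Klf9 and Dusp1), where 25.8% were. Without B6 E18.5 replicate 1 the B6 count was 2, and Klf9 in A/J was lost without E17.5 replicate 2 or E18.5 replicate 3 (adjusted p 0.0583 to 0.136). In A/J 1 member (Nr3c1) was lower, where 4.32% of all tested probe sets were. Between E18.5 and E20.5 in A/J, 1 member passed (Klf9, 0.38, SE 0.14, adjusted p = 0.0431), where 7.02% of all tested probe sets were higher and 26.4% lower. The Klf9 groups overlapped, and the call was lost without any 1 of the E20.5 replicates or without E18.5 replicate 1 or 2. Without E18.5 replicate 3, 4 members were called. No member passed between E19.5 and E20.5, a step in which 0.482% of all tested probe sets did (limma). Before adjustment, 2 members (Klf9 and Nr3c2) were under 0.05 there.

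Fkbp5, an immunophilin that lowers the affinity of the receptor for hormone, varied widely between A/J replicates of the same age late in gestation. At E18.5 the A/J replicates read 9.36, 9.29 and 10.01, and at E19.5 they read 9.76, 8.80 and 9.54. The value of 8.80 came from replicate 2, in which esophagus markers lay 1.71 and liver markers 1.19 above the median of the group. The part of other tissue in this spread was not tested. A/J replicate 3 of E18.5 was also the highest of its group for Zbtb16 (10.66), Tsc22d3 (9.57), Klf9 (9.55), Dusp1 (10.79) and Hsd11b1 (10.16), so that these 6 genes deviated together in that pool. Over all 12 groups, the replicate with the highest Fkbp5 was also the one with the highest Klf9 and the one with the highest Hsd11b1 in 8 groups each. It alone was the highest for Nr3c1, Tsc22d3 and Zbtb16 in 6 groups each, for Hsd11b2 in 5, for Nr3c2 and Dusp1 in 3 each and for Sgk1 in 1. A tie was not counted, and it tied for the highest Nr3c2 in A/J at E18.5 and the highest Dusp1 in A/J at E15.5. In A/J Fkbp5 at PN0 was 1.38-fold above E15.5 (adjusted p = 0.0475), a call that was lost without 22 of the 36 replicates in turn (adjusted p 0.0503 to 0.123).

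In the step to birth, Sgk1 and Dusp1 were the 2 targets that rose in both strains. Sgk1 encodes a kinase that keeps the epithelial sodium channel at the cell surface, and Dusp1 a phosphatase of MAP kinases. Sgk1 read 9.40, 9.87 and 9.73 in B6 at PN0, against 7.40, 7.14 and 7.36 at E18.5, a rise of 5.16-fold (2.37, SE 0.15, adjusted p = 1.14e-11). In A/J it read 9.14, 9.31 and 8.86 at PN0, against 7.61, 7.71 and 7.66 at E20.5, a rise of 2.72-fold (1.44, SE 0.15, adjusted p = 9.37e-08). Every PN0 replicate of both strains thus lay above every fetal replicate, the highest of which read 7.92. Before birth Sgk1 had changed little in B6, where the difference between E18.5 and E15.5 was 0.15 (SE 0.15). In A/J E20.5 was 1.92-fold above E15.5 (adjusted p = 4.54e-06). The change from E15.5 to E18.5 differed between the strains by -0.66 (B6 minus A/J, SE 0.21), which did not pass (adjusted p = 0.0649).

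Dusp1 had already risen before birth and rose again. It read 11.73, 12.03 and 12.01 in B6 at PN0, against 10.18, 9.76 and 10.04 at E18.5, a rise of 3.81-fold (1.93, SE 0.17, adjusted p = 5.17e-09). In A/J it read 11.82, 12.36 and 11.55 at PN0, against 10.55, 10.50 and 10.77 at E20.5, a rise of 2.47-fold (1.30, SE 0.17, adjusted p = 4.21e-06). At PN0 Dusp1 averaged 11.92 ± 0.17 in B6 and 11.91 ± 0.41 in A/J (SD, n = 3 each). Of the total log2 change of Dusp1 between E15.5 and PN0, 44.7% was present at the last fetal time in B6 and 62.9% in A/J. For Sgk1 the shares were 6.1% in B6 and 39.4% in A/J, the lowest of the 6 targets in each strain, and for the other targets they were 52.1% and 121.6% (Fkbp5), 67.1% and 110.4% (Klf9), 77.4% and 101.4% (Tsc22d3) and 79.1% and 127.8% (Zbtb16).

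Promoter sequence of the 2 genes that rose at birth in both strains is given because it holds matches to response elements of the hormone and of cyclic AMP. RefSeq promoters (GRCm38.p6, 250 bases before to 50 bases after a start site) were searched on both strands in 14 windows of 7 members (Nr3c2, Hsd11b1, Fkbp5, Tsc22d3, Sgk1, Klf9 and Dusp1), and Nr3c1, Hsd11b2 and Zbtb16 were not analysed here. The full glucocorticoid palindrome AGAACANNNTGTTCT occurred in 1 of these windows, the 5th of 6 start sites of Sgk1, beginning 189 bases before the start site, and in 3 of 32851 promoters of the genome (0.00913%). The half-site AGAACA occurred in 19.0% of all promoters, and among the members in windows of Sgk1 and in the third window of Tsc22d3. The cyclic AMP response element TGACGTCA occurred in 1.79% of all promoters and among the members in Dusp1 alone, 143 bases before the start site. A looser palindrome (GNACANNNTGTNC) occurred in 0.475% of all promoters, the TATA box (TATAAA) in 13.6% and the E-box (CACGTG) in 7.15%. In the sequences below, capitals mark the palindrome and a further half-site on the opposite strand (TGTTCT, which overlaps an E-box, CACGTG) in Sgk1, and TGACGTCA in Dusp1.
Sgk1, chr10:21993640-21993939, plus strand: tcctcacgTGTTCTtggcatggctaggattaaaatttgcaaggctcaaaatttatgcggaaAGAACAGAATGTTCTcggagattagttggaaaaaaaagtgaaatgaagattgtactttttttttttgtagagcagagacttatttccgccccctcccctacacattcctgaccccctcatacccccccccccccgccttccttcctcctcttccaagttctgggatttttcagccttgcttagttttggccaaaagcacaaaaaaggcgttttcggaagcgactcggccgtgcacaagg
Dusp1, chr17:26508423-26508722, minus strand: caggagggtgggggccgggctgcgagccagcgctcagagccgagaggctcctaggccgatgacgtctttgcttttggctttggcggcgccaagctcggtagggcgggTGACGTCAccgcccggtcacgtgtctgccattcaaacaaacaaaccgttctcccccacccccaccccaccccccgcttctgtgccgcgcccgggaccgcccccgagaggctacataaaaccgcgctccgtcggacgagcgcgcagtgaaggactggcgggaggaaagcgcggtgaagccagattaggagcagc
These matches describe letters only, and no binding was measured.

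In the last step, 8 members were called in B6 and 5 in A/J. With each replicate left out in turn, these counts ranged from 4 to 8 in B6 and from 3 to 5 in A/J. The ranges overlapped, and the B6 step lasted a day while the A/J step lasted a few hours. In B6, 6 members were higher at PN0 than at E18.5 (all 6 targets), where 12.2% of all tested probe sets were higher, and 2 were lower (Hsd11b1 and Nr3c1), where 14.1% were. In A/J, 2 members were higher at PN0 than at E20.5 (Sgk1 and Dusp1), where 11.8% of all tested probe sets were, and 3 were lower (Hsd11b1, Nr3c1 and Zbtb16), where 7.74% were. Klf9 read 9.88, 10.32 and 10.31 in B6 at PN0, against 8.96, 8.98 and 9.10 at E18.5, a rise of 2.23-fold (adjusted p = 8.38e-07). In A/J Klf9 read 9.40, 9.36 and 9.13 at PN0, against 9.62, 9.53 and 9.57 at E20.5, without overlap, and the difference of -0.28 (SE 0.14) did not pass (adjusted p = 0.197). Klf9 of B6 at PN0 lay above every other group.

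Zbtb16 moved in opposite directions. It read 10.83, 11.12 and 10.30 in B6 at PN0, against 9.84, 10.01 and 10.07 at E18.5, and was 1.72-fold higher (adjusted p = 0.0161). In A/J it read 9.44, 9.11 and 9.58 at PN0, against 10.18, 10.16 and 9.91 at E20.5, and was 1.63-fold lower (adjusted p = 0.0377). Neither pair of groups overlapped. The B6 call was lost without E18.5 replicate 1 or PN0 replicate 1 or 2 (adjusted p 0.0501 to 0.117), and the A/J call without E20.5 replicate 1 or 2 or PN0 replicate 1 or 2 (adjusted p 0.0658 to 0.172). The A/J call was also lost with each array centred on its median (adjusted p = 0.056) and without the replicates high in other tissues' markers (adjusted p = 0.171). The A/J value of 9.11 at PN0 came from replicate 2, which was high in esophagus markers. Fkbp5 rose 1.48-fold in B6 (adjusted p = 0.0312), which was lost without E18.5 replicate 1 or 3 or PN0 replicate 1 or 2 (adjusted p 0.0533 to 0.151), and Tsc22d3 rose 1.42-fold (adjusted p = 0.00918), which was lost without E18.5 replicate 2 or PN0 replicate 1 (adjusted p 0.0537 to 0.0637). In A/J the corresponding differences were -0.10 (SE 0.19) for Fkbp5 and -0.03 (SE 0.14) for Tsc22d3.

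**Figure D2:**
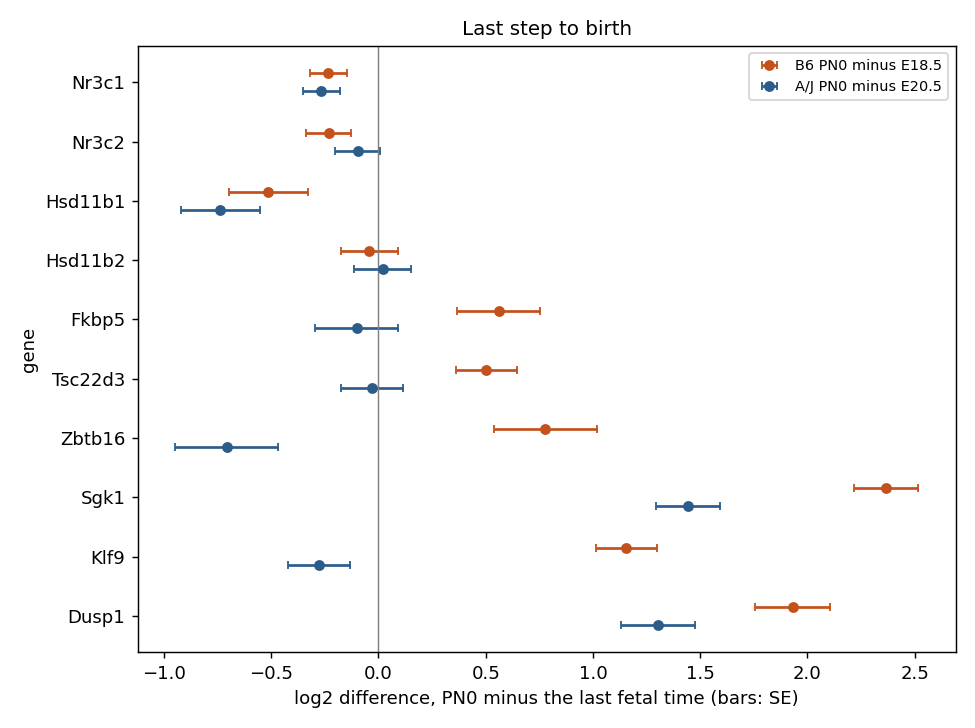
Log2 difference between PN0 and the last fetal time (horizontal axis, bars are SE) for each gene (vertical axis), E18.5 in B6 and E20.5 in A/J. Sgk1 (2.37 in B6, 1.44 in A/J) and Dusp1 (1.93 and 1.30) lie to the right in both strains, while Klf9 (1.16 and -0.28) and Zbtb16 (0.78 and -0.71) lie on opposite sides of 0.

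The strain difference of this last step was tested directly. It was 1.43 for Klf9 (SE 0.20, adjusted p = 5.84e-05), 1.49 for Zbtb16 (SE 0.34, adjusted p = 0.00517) and 0.92 for Sgk1 (SE 0.21, adjusted p = 0.00539), with the higher value in B6 each time. It did not pass for Fkbp5 (0.66, SE 0.27, adjusted p = 0.131), Tsc22d3 (0.53, SE 0.20, adjusted p = 0.0968) or Dusp1 (0.63, SE 0.25, adjusted p = 0.108). These were 3 of the 10 members, where 3.51% of all tested probe sets had a difference above 0 and 7.10% one below 0. The step spanned a day in B6 and a few hours in A/J, so that strain and interval cannot be told apart in it. Counted from E18.5 in both strains, the change to PN0 was larger in B6 for 4 members, where this held for 10.1% of all tested probe sets and the opposite for 2.81%: Zbtb16 by 1.48 (adjusted p = 0.00474), Fkbp5 by 1.06 (adjusted p = 0.0111), Klf9 by 1.05 (adjusted p = 0.00118) and Sgk1 by 0.79 (adjusted p = 0.0141, or 0.0505 without A/J PN0 replicate 3). With only the compared groups in the model, Klf9 alone of the 4 remained called (adjusted p 0.0564 for Zbtb16, 0.066 for Sgk1 and 0.0704 for Fkbp5).

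Few members differed between the strains before birth, and 4 targets did at PN0. B6 lungs at PN0 were a day past E18.5 and A/J lungs a few hours past E20.5. Strain and age thus cannot be told apart at PN0. At E18.5 no member passed in limma, where 31.0% of all tested probe sets did, and 1 (Fkbp5) had an unadjusted p under 0.05. The difference B6 minus A/J ranged from -0.45 (Fkbp5, SE 0.19) to 0.14 (Nr3c1, SE 0.09). Without A/J E18.5 replicate 2, 2 members were called, and without A/J E19.5 replicate 2, 1 was. At PN0, 4 members were higher in B6, where 6.37% of all tested probe sets were higher and 12.8% lower. Zbtb16 averaged 10.75 ± 0.42 in B6 and 9.38 ± 0.24 in A/J (SD, n = 3 each), 2.59-fold higher in B6 (adjusted p = 0.00016). Klf9 averaged 10.17 ± 0.25 in B6 and 9.30 ± 0.15 in A/J, 1.83-fold higher (adjusted p = 8.16e-05). Sgk1 averaged 9.67 ± 0.24 in B6 and 9.10 ± 0.23 in A/J, 1.48-fold higher (adjusted p = 0.00856), which was lost without B6 replicate 2 or A/J replicate 3 (adjusted p 0.0658 to 0.0697). Fkbp5 averaged 9.66 ± 0.31 in B6 and 9.06 ± 0.08 in A/J, 1.52-fold higher (adjusted p = 0.0271), which was lost without replicate 1 or 2 of either strain (adjusted p 0.0623 to 0.131).

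The replicates of these 4 called targets did not overlap between the strains at PN0, which adds little to their calls. No share of all tested probe sets without overlap is given. Dusp1 and Tsc22d3 overlapped, with differences of 0.01 (SE 0.17) and 0.09 (SE 0.14). Over the whole interval from E15.5 to PN0 the change was larger in B6 for 2 members, Zbtb16 by 1.17 (adjusted p = 0.0394) and Klf9 by 0.86 (adjusted p = 0.0118), where 1.79% of all tested probe sets had a difference above 0 and 3.69% one below 0. The count was 1 without any of 8 replicates in turn, in each of which Zbtb16 was lost (adjusted p 0.0546 to 0.13), and these were 2 replicates each of A/J E15.5, A/J PN0, B6 E15.5 and B6 PN0. When E18.5 lungs of B6 were set against E19.5 lungs of A/J, 1 member was lower in B6 (Tsc22d3, -0.58, SE 0.14, adjusted p = 0.00859), where 4.87% of all tested probe sets were lower and 4.66% higher. Tsc22d3 read 8.93, 8.86 and 9.21 in B6 and 9.85, 9.51 and 9.39 in A/J, and the call was lost without A/J replicate 1 or B6 replicate 2 (adjusted p 0.0539 to 0.0778).

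**Figure D3:**
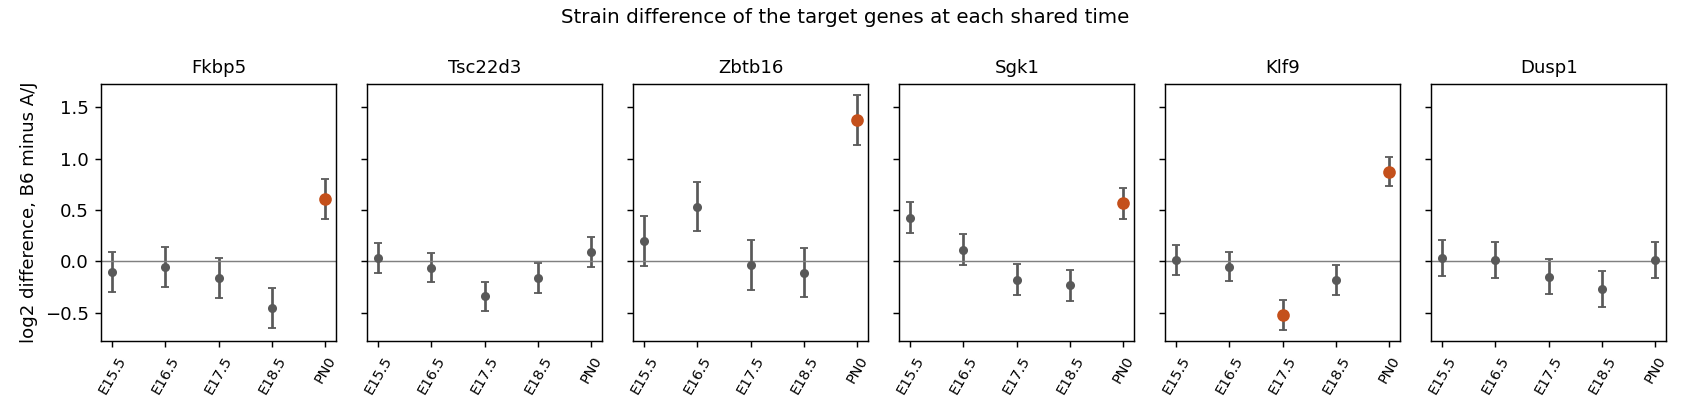
Log2 difference B6 minus A/J (vertical axis, bars are SE) of the 6 targets at the 5 times sampled in both strains (horizontal axis). At PN0 the strains also differed in age. Orange points passed the test. Fkbp5 (0.61), Zbtb16 (1.37), Sgk1 (0.56) and Klf9 (0.87) lie above 0 at PN0, and Klf9 lies below 0 at E17.5 (-0.52).

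At PN0 against E15.5, 7 members were higher in B6, where 24.1% of all tested probe sets were higher, and 7 in A/J, where 25.0% were. In B6, 1 member (Nr3c2) was lower, where 26.4% of all tested probe sets were, and in A/J 1 (Hsd11b2), where 25.6% were. The median difference over the 6 targets was 3.01 in B6 and 2.46 in A/J, beside -0.00 and -0.04 over all tested probe sets. The 3 genes with the largest total rise among the targets were Zbtb16 (13.1-fold), Klf9 (11.4-fold) and Dusp1 (11.2-fold) in B6, and Dusp1 (11.4-fold), Klf9 (6.32-fold) and Zbtb16 (5.83-fold) in A/J.

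RNAs of most proteins that hold or escort the receptor fell during the time course. Of 10 measured chaperones and immunophilins, 8 were lower at E17.5 than at E15.5 in each strain, with list medians of -0.42 in B6 and -0.46 in A/J, where 21.7% of all tested probe sets were lower in B6 and 20.3% in A/J. At PN0, 8 were lower and 1 was higher in each strain, with list medians of -0.67 in B6 and -0.73 in A/J, where 26.4% of all tested probe sets were lower in B6 and 25.6% in A/J. Hsp90aa1, the inducible Hsp90, was lower at PN0 than at E15.5 by -0.91 in B6 (adjusted p = 5.28e-12) and -1.18 in A/J (adjusted p = 2.03e-14). Fkbp4, an immunophilin of the receptor complex, was lower by -1.20 in B6 (adjusted p = 1.44e-11) and -1.24 in A/J (adjusted p = 7.75e-12). Stip1, which hands the receptor from Hsp70 to Hsp90, was lower by -1.12 and -1.28, and the cyclophilin Ppid by -0.83 and -0.87, in B6 and in A/J.

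Of 9 measured coregulators, 5 were higher and 2 were lower at PN0 than at E15.5 in B6, and 3 were higher and 3 were lower in A/J. Of all tested probe sets, 24.1% were higher and 26.4% lower in B6, and 25.0% and 25.6% in A/J, and the list medians were 0.23 in B6 and 0.02 in A/J, beside -0.00 and -0.04 over all probe sets. Ncoa1, a coactivator of steroid receptors, was higher by 0.65 in B6 (adjusted p = 1.27e-09) and 0.34 in A/J (adjusted p = 6.34e-05), and the acetyltransferase Ep300 by 0.43 and 0.31. Smarca4, the ATPase of the SWI/SNF remodeller, was lower by -0.82 in B6 (adjusted p = 1.63e-11) and -0.80 in A/J (adjusted p = 2.76e-11), and the deacetylase Hdac3 by -0.60 and -0.47.

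Most of a list of further glucocorticoid targets, chosen with earlier results of these data known, rose before birth. Of 24 measured genes, 17 were higher and 1 was lower at E17.5 than at E15.5 in B6, and 20 were higher and none was lower in A/J, where 17.6% of all tested probe sets were higher in B6 and 16.9% in A/J. Of the same list, 21 were higher and none was lower at PN0 than at E15.5 in B6, and 22 were higher and 1 was lower in A/J, with list medians of 1.41 and 1.48, where 24.1% of all tested probe sets were higher in B6 and 25.0% in A/J. The last step to birth spanned a day in B6 and a few hours in A/J. Strain and interval thus cannot be told apart in it, for this list or for the lists below. In that step, 15 of these genes were higher and 3 lower in B6, with a list median of 0.56, and 3 were higher and 4 lower in A/J, with a list median of -0.02. Of all tested probe sets, 12.2% were higher and 14.1% lower in B6, and 11.8% and 7.74% in A/J. Per1, a clock gene with a glucocorticoid response element, rose at that step by 1.11 in B6 (adjusted p = 4.56e-06), while the A/J difference was -0.15 (adjusted p = 0.564). Cebpd, a transcription factor, rose by 1.18 in B6 (adjusted p = 0.000122), against an A/J difference of -0.46 (adjusted p = 0.144). Pdk4, a kinase that restrains glucose oxidation, rose by 1.35 in B6 (adjusted p = 0.000157), against 0.19 in A/J (adjusted p = 0.655). The metallothionein Mt2 rose by 0.90 in B6 (adjusted p = 0.00168), against -0.32 in A/J (adjusted p = 0.324). At PN0 Per1 was higher in B6 than in A/J by 0.99 (adjusted p = 4.68e-05) and Cebpd by 0.90 (adjusted p = 0.00345), whereas Mt2 was lower in B6 by -0.66 (adjusted p = 0.0275). Strain and age cannot be told apart in these PN0 differences.

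The lung genes through which glucocorticoid is known to act on surfactant and fluid were higher at E17.5 and at PN0 than at E15.5. They too were listed with earlier results of these data known. All 11 measured genes were higher at E17.5 than at E15.5 in both strains, with list medians of 1.98 in B6 and 1.81 in A/J, where 17.6% of all tested probe sets were higher in B6 and 16.9% in A/J. At PN0 all 11 were higher, with list medians of 3.21 and 3.39, where 24.1% of all tested probe sets were higher in B6 and 25.0% in A/J. Sftpd, a surfactant protein of host defence, was higher at PN0 than at E15.5 by 5.20 in B6 (adjusted p = 6.21e-19) and 5.18 in A/J (adjusted p = 3.54e-19). Scnn1a, the alpha subunit of the epithelial sodium channel that Sgk1 acts on, was higher by 4.99 in B6 (adjusted p = 6.15e-19) and 4.80 in A/J (adjusted p = 5.07e-19). In the last step Scnn1a rose by 0.77 in B6 (adjusted p = 0.000514), while its A/J difference was 0.20 (adjusted p = 0.431). Sftpd rose in that step in both strains, by 1.06 in B6 (adjusted p = 2.23e-05) and 0.71 in A/J (adjusted p = 0.00299). The surfactant proteins Sftpa1 and Sftpb differed by at most 0.14 in either strain, and neither passed. This list overlaps the epithelial markers through Sftpb, and 6 of 7 epithelial markers were higher at PN0 than at E15.5 in each strain. The mean of the 7 markers ranged from 11.27 to 11.31 at PN0, against 8.50 to 8.63 at E15.5, in B6, and from 11.51 to 11.53 at PN0, against 8.61 to 9.07 at E15.5, in A/J. Their part in the rise of Hsd11b1 and the targets was not tested.

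Most immediate early genes, which respond to many stimuli, rose with Sgk1 and Dusp1 at birth. Of 17 measured, 12 were higher and 1 lower in B6, with a list median of 0.75, and 11 were higher and 1 lower in A/J, with a list median of 0.50. Of all tested probe sets, 12.2% were higher and 14.1% lower in this step in B6, and 11.8% and 7.74% in A/J. Fos rose by 1.57 in B6 (adjusted p = 2.31e-05) and 1.43 in A/J (adjusted p = 0.000133). Klf4, a transcription factor, rose in both strains, by 1.84 in B6 (adjusted p = 1.87e-10). Ier3 and Zfp36 rose in B6, by 0.79 (adjusted p = 0.000304) and 0.67 (adjusted p = 0.000299), while their A/J differences were 0.07 and -0.03. Of 7 markers of macrophages and blood leukocytes, 5 rose in this step in B6 and 3 in A/J, and their mean ranged from 8.64 to 8.76 at PN0, against 7.54 to 7.82 at E18.5, in B6, and from 8.86 to 8.99 at PN0, against 8.39 to 8.51 at E20.5, in A/J. Their part in the step at birth was not tested.

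**Figure D4:**
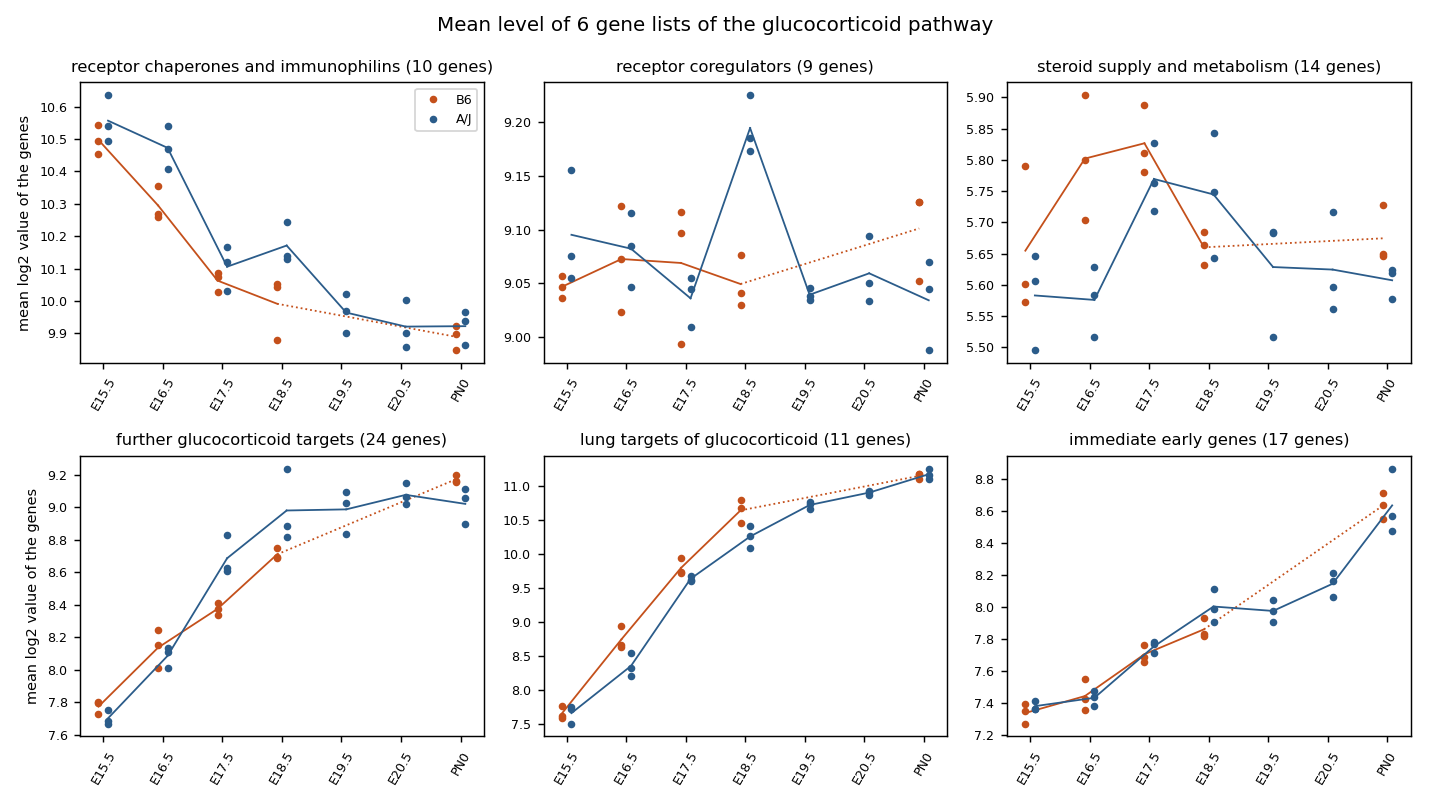
Mean log2 value of the genes of 6 lists (vertical axis) by time (horizontal axis) in B6 and A/J lungs. Each point is a replicate, lines join group means, and the dotted line of B6 spans times at which B6 was not sampled. Chaperones fall, lung targets lie between 11.1 and 11.2 at PN0, and immediate early genes step up at PN0.

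Over the 36 replicates, which share a time course, each member was set against all other genes, and the values describe likeness only. Hsd11b1 was most like AU021092 (r = 0.993), Clic5 and Sec14l3, and 493 genes exceeded r = 0.9 with it. Tsc22d3 was most like Smagp (r = 0.988), Gstm1 and Map1lc3b, with 905 genes above 0.9. Klf9 was most like Zfp36 (r = 0.984), Dhrs3 and Pfkfb2, with 685, and Dusp1 most like Klf6 (r = 0.986), Il4ra and Heg1, with 458. Zbtb16 was most like Atp6v0a4 (r = 0.976), Dapk1 and Xdh, with 168, and Sgk1 most like Klf4 (r = 0.948), Adam15 and P2ry2, with 31. No gene reached 0.9 with the other members. Nr3c1 was most like Myo1e (r = 0.864), Phex and Col6a3, and Fkbp5 most like Trp53inp1 (r = 0.860), Ranbp9 and Zbtb16. Hsd11b2 was most like Kcnab2 (r = 0.773), Stra6 and 1190005I06Rik, and Nr3c2 most like Cnpy3 (r = 0.634), Dhx33 and Pank2. Among the members, Nr3c1 and the targets had r between -0.38 (Sgk1) and 0.20 (Zbtb16), while Klf9 and Tsc22d3 had r = 0.96 and Sgk1 and Dusp1 r = 0.90.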

How the data were processed

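RNA of litter pools of A/J and B6 lungs was hybridised to Affymetrix Mouse Gene 1.0 ST arrays. There were 37 arrays, treated as 36 replicates. The log2 values were deposited by the authors after RMA (background correction, quantile normalization and probe set summary), and the submitters' notes name Affymetrix Expression Console 1.1. Array medians lay between 6.34 and 6.54. No depth applies to arrays, and their number limits the precision.

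The deposited table held 35556 probe sets, of which 21789 carried 1 gene symbol, 1621 several and 12146 none. Group means of all 12 groups were fitted with limma 3.58.1 in R 4.3.3, with empirical Bayes over all probe sets and Benjamini-Hochberg adjustment over the 21789. In simulated data of the comparison of A/J PN0 with E15.5, run on 21789 probe sets, 100% of 2-fold changes and 71% of 1.5-fold changes were recovered, 100 of each, beside 11 false calls. Fold changes are 2 to the power of the log2 difference.

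The 10 members and all lists were chosen with earlier results of these data known. The rule for named genes took all members, of each list the up to 4 genes with the largest mean change between E15.5 and PN0, and for each member the 3 genes of highest Pearson r. Promoters were searched for the glucocorticoid half-site (AGAACA), its full palindrome (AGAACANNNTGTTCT) and a looser one (GNACANNNTGTNC), the cyclic AMP element (TGACGTCA), the TATA box (TATAAA) and the E-box (CACGTG). Alternatives covered scaling, the probe sets tested, a filter on dim ones, empirical Bayes, the samples in the model, array 2b, a fold minimum, a replicate block, replicates high in other tissues' markers, and each replicate left out. Empirical Bayes over the tested probe sets alone was added after seeing the data.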

Additional observations from a re-analysis of the deposited data

Results flagged for a closer look

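All 9 results named here are differences between the strains in a change over time, B6 minus A/J, that passed limma's interaction test. From E15.5 to PN0 they were 1.17 for Zbtb16 (adjusted p = 0.0394) and 0.857 for Klf9 (adjusted p = 0.0118). Without the 5 replicates high in markers of neighbouring tissue these had adjusted p values of 0.236 and 0.112. From E18.5 to PN0 they were 1.48 for Zbtb16, 1.06 for Fkbp5, 1.05 for Klf9 and 0.793 for Sgk1. With only the compared groups in the model, Zbtb16, Fkbp5 and Sgk1 were no longer called there (adjusted p 0.0564, 0.0704 and 0.066). In the last step to birth, which spanned E18.5 to PN0 in B6 and E20.5 to PN0 in A/J, they were 1.485 for Zbtb16, 1.43 for Klf9 and 0.923 for Sgk1. B6 pups at PN0 were younger than A/J pups, so that strain and age cannot be told apart in any of them.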

How the results depend on the processing

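The 130 called changes of members were recomputed under 13 settings, which gave 1687 values, of which 1553 stayed called, 134 did not and 0 reversed. Leaving out each replicate gave 4680 values, of which 198 were no longer called and 0 reversed. With a minimum fold of 1.5, member counts became 2 for A/J E18.5 against E17.5, 0 for A/J E20.5 against E18.5, 4 for B6 PN0 against E18.5 and 0 for B6 E18.5 against A/J E19.5. With only the compared groups in the model, these became 1, 0, 4 and 0, the strain difference from E15.5 to PN0 became 1, and that from E18.5 to PN0 lost 3 of its 4 members. With each array centred on its median, A/J E20.5 against E18.5 became 2 and A/J PN0 against E20.5 became 3. With quantile normalization, A/J E20.5 against E18.5 became 3 and B6 against A/J at E18.5 became 1. Without the 5 replicates flagged for other tissues' markers, A/J E20.5 against E18.5 became 0, A/J PN0 against E20.5 became 3 and the strain difference became 0. That setting kept all replicates of A/J E18.5 and E20.5, whose esophagus markers reached a similar level. With all probe sets adjusted together the strain difference became 1, and with array 2b as a separate replicate B6 E18.5 against A/J E19.5 became 2. The cause was not tested.

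With each replicate left out in turn, counts ranged from 2 to 5 for B6 E18.5 against E17.5, from 3 to 5 for A/J E18.5 against E17.5, from 0 to 4 for A/J E20.5 against E18.5, from 3 to 5 for A/J PN0 against E20.5, from 4 to 8 for B6 PN0 against E18.5, from 0 to 2 for B6 against A/J at E18.5, from 0 to 2 for B6 E18.5 against A/J E19.5 and from 1 to 2 for the strain difference. B6 PN0 against E18.5 was 5 without B6 E18.5 replicate 1 or 2 and 4 without B6 PN0 replicate 1 or 2, and A/J PN0 against E20.5 was 3 without A/J PN0 replicate 1.

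Replicates of the same number did not deviate together (correlations of -0.413 to 0.389), so that the numbers were not taken to pair samples. With the replicate block, A/J E20.5 against E18.5 became 0, the strain difference from E15.5 to PN0 became 1, and probe sets called for A/J E17.5 against E15.5 became 8022 in place of 8110. Each member had 1 probe set, so that another probe set gave no value.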
